A study of Vitis vinifera with 219 samples.

Results

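The flavonol branch of the berry was followed through 2 genes, the regulator MYBF1 (VIT_07s0005g01210) and flavonol synthase, FLS (VIT_18s0001g03470), out of 29971 gene IDs in the expression table. Both were taken by ID, with no threshold on a measured value. The table covered unthinned berries of the grapevine Vitis vinifera from 2 cultivars, Cabernet Sauvignon (clone FPS 8 on rootstock 5C) and Pinot noir (clone FPS 23 on rootstock Freedom), in the seasons 2012, 2013 and 2014. Each of the 73 groups was 1 cultivar at 1 time point of 1 season with 3 libraries, and each library came from 60 pooled berries ground with their seeds removed. Skin and flesh were therefore measured together, and fewer cells of a type and less RNA per cell cannot be told apart. Each cultivar was represented by 1 clone on its own rootstock, so cultivar, clone and rootstock cannot be told apart. Time is given in days from veraison as labelled, when berries soften and colour, and ran from day -37 to day 80 in Cabernet Sauvignon and from day -36 to day 53 in Pinot noir.

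Flavonols are colourless flavonoids that screen ultraviolet light and stabilise anthocyanin colour, and in grape they collect mainly in the skin. Flavonol synthase makes them from dihydroflavonols, the intermediates that dihydroflavonol reductase (DFR) would otherwise pass to anthocyanins and tannins. MYBF1 is a MYB transcription factor that activates the FLS promoter in grapevine and responds to light, and flavonol formation in grape is known to occur early, around flowering, and again during ripening. In the RefSeq gene table FLS1 lies on chromosome 18 and MYB12, with the synonym mybF1, on chromosome 7, the chromosomes that the IDs used here carry. The table's IDs themselves were not listed there, so the names were matched by symbol.

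The marker genes of the cultivars went against the label in 4 libraries: all 3 Cabernet Sauvignon libraries of day -23 in 2014 and the Pinot noir library 2 of day -14 in 2014. Values from them are given with that label, and the tests of both genes that use them are also given without them. Levels are in RPKM, read counts scaled to gene length and library depth. There were 3 genes at 20 RPKM or more in every library of 2012 and under 1 RPKM in every library of 2014. They divided the libraries into 2 sets that the labels do not name. The rule fixed the place of 2012 and 2014, so only the 2013 libraries were placed by their values. The first set held all libraries of 2012 and most of 2013. The second held all 75 libraries of 2014 and 13 Cabernet Sauvignon libraries of 2013. The lowest mean of those genes was 35.7 RPKM in the first set and the highest was 0.159 RPKM in the second. Season 2014 and the second set cannot be told apart. The summed level of 4 genes of ripening coloured skin, among them UFGT and GST4 for anthocyanin glucosylation and transport, was 0 to 1.54 RPKM before ripening and 573 to 1405 RPKM at day 21 to 22.

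MYBF1 was a transcript of the green berry that faded to almost nothing during ripening. Its level ran from 0 to 37.5 RPKM with a median of 2.19 RPKM, and it was listed at 0 in 18 libraries. In Cabernet Sauvignon of 2012 the youngest berries, at day -37, had 37.5, 28.9 and 26.7 RPKM. At day -18 the same cultivar and season had 8.87, 11.6 and 12.4 RPKM, and at day 0 it had 8.98, 6.67 and 7.80 RPKM. These 2 later groups overlapped each other and both lay below every library of day -37. By day 21 the values were 2.15, 1.37 and 1.63 RPKM, and at day 53 they were 0, 0.139 and 0.0273 RPKM, below all earlier groups up to day 42 of that season.

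Pinot noir began the 2012 season with 15.6, 23.5 and 16.6 RPKM of MYBF1 at day -36 and still had 21.0, 15.5 and 18.5 RPKM at day -18. The groups overlapped, so no fall was visible between those days in Pinot noir, and at day -18 every Pinot noir library lay above every Cabernet Sauvignon library of the same day. After that the regulator fell here too: the libraries had 2.81, 2.82 and 1.96 RPKM at day 21 and 0.0481, 0.0933 and 0.797 RPKM at day 32. In Pinot noir of 2013 MYBF1 was listed at 0 in all 3 libraries of day 35 and of day 42. Across the 6 cultivar-seasons the median of a time point first went below 1 RPKM between day 21 and day 35, when the berries held on average 17.6 to 20.6 g of sugar per 100 ml.

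Equal labelled days before veraison had different MYBF1 levels in different seasons. At day -20 Pinot noir had 13.6, 12.2 and 14.1 RPKM in 2013 and 2.61, 4.65 and 2.92 RPKM in 2014, with no overlap. In 2014 the highest median of the Pinot noir course came only at day 0, with 5.08, 7.41 and 6.15 RPKM. Cabernet Sauvignon of 2014 had its highest median at day -7, with 8.59, 7.50 and 7.76 RPKM, above all libraries of day -14, which had 6.75, 6.24 and 6.22 RPKM. The 3 libraries labelled Cabernet Sauvignon at day -23, which carried Pinot noir markers, had 4.24, 3.00 and 3.33 RPKM. These green-stage season values were not tested. On the labelled day 0 of 2014 the mean sugar was 2.26 g per 100 ml in Cabernet Sauvignon and 1.11 in Pinot noir, against 6.83 to 9.23 in the 4 cultivar-seasons of 2012 and 2013, so that labelled day 0 had less sugar in 2014. At day 42 to 43 sugar of 2014 lay between that of the other seasons, with 20.9 against 19.5 and 23.8 in Cabernet Sauvignon and 23.85 against 26.5 and 22.9 in Pinot noir.

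FLS, the enzyme gene, differed more from library to library. Its level ran from 0 to 23.3 RPKM with a median of 1.61 RPKM, and it was listed at 0 in 6 libraries. In Cabernet Sauvignon of 2012 the libraries had 0.0738, 0 and 0 RPKM at day -28 and 0.0464, 0 and 0 RPKM at day -18. At day 0 they had 8.77, 0.929 and 4.28 RPKM, all above the green berries, though the highest of the 3 was many times the lowest. At day 21 they had 2.33, 3.11 and 2.42 RPKM, inside the range of day 0.

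In Pinot noir FLS came up near veraison too, but in 2014 the libraries stayed low for longer. In 2012 the libraries had 0.130, 0.0351 and 0.161 RPKM at day -18 and 1.54, 2.35 and 1.187 RPKM at day -9, with no overlap. Day -18 was a low point, however: at day -28 they had 1.20, 0.144 and 1.34 RPKM, which overlapped both later days. The ripening change of that season, given below, starts from day -18, whose median lay below that of day -28. In 2013 the highest median of the course was at day 0, where the libraries had 3.19, 6.54 and 0.741 RPKM. In 2014 they had 0.0623, 1.26 and 0.419 RPKM at day 0 and 2.38, 0.0980 and 0.198 RPKM at day 21, so the groups overlapped. The single library with 2.38 RPKM was also the one with 7.18 RPKM of MYBF1, where the other 2 libraries of that day had 1.75 and 2.33 RPKM. RPKM is scaled to gene length, so the levels of the genes can be set side by side. By the median of each time point FLS lay above MYBF1, and stayed there to the end of sampling, from day 21, day 8 and day 21 in the 3 Cabernet Sauvignon seasons, in order. In Pinot noir this held from day 32, day 21 and day 35.

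**Figure D1:**
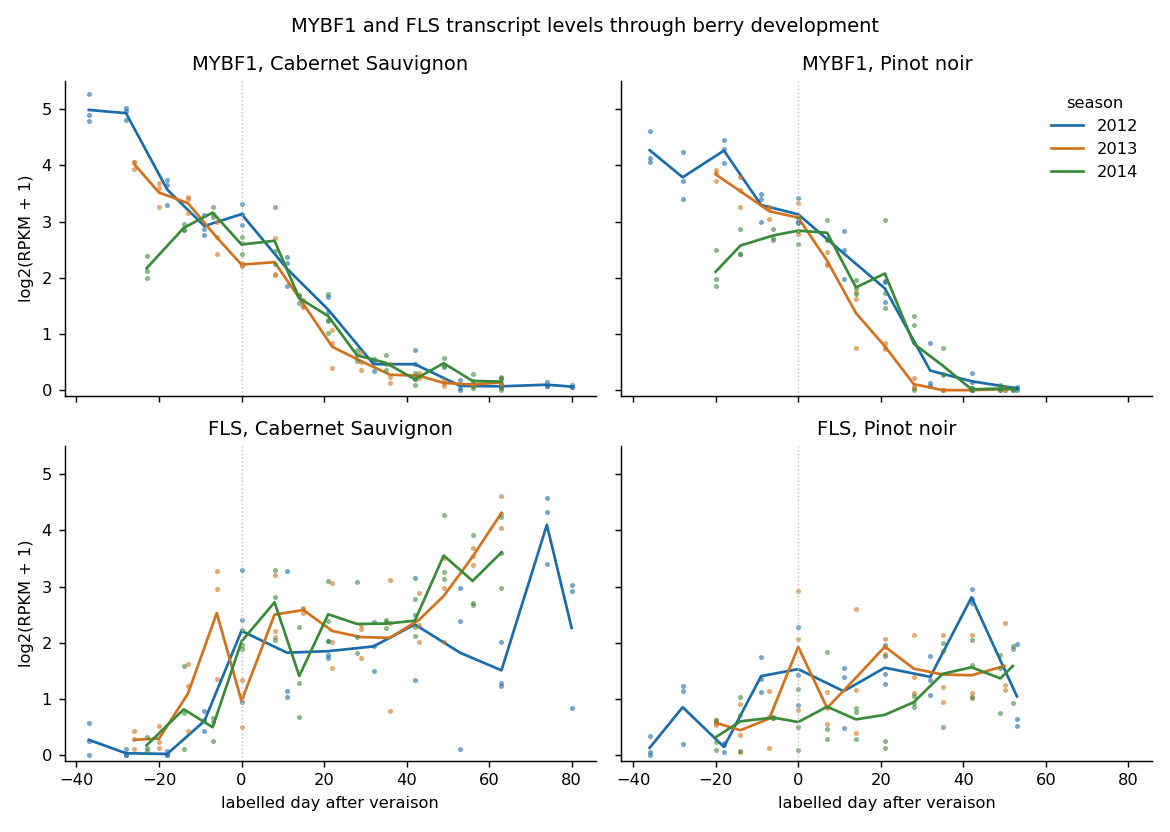
Levels of MYBF1 (upper row) and FLS (lower row), as log2(RPKM + 1), against the labelled day in Cabernet Sauvignon (left) and Pinot noir (right). Points are single libraries, lines join the means of 3 libraries, colours are seasons, and the dotted line marks day 0; MYBF1 declines to near 0 in all 6 courses, while FLS reaches its highest levels late in Cabernet Sauvignon.

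Over the step into ripening the regulator fell and the enzyme rose. The ripening change was the level at day 21 to 22 minus that before onset, at day -18 to -13, tested with limma on log2(RPKM + 1) with Benjamini-Hochberg adjustment over the 21425 genes tested. A gene was called at an adjusted p under 0.05 and a log2 change of at least 1 in size. Over the 18 libraries of each stage MYBF1 ran from 4.34 through a median of 9.19 to 21.0 RPKM before onset and from 0.317 through 1.501 to 7.18 RPKM at day 21 to 22, so that the stages overlapped through the single high Pinot noir library of 2014. FLS ran from 0 through 0.219 to 2.08 RPKM before onset and from 0.0980 through 2.64 to 7.54 RPKM at day 21 to 22, and these ranges overlapped as well. Averaged over the 6 cultivar-seasons MYBF1 fell by 1.99 on the log2 scale (SE 0.08, adjusted p = 8.42e-53 by limma). FLS rose by 1.27 (SE 0.20, adjusted p = 7.4e-09 by limma). These SEs rest on the spread between libraries of a group, not between seasons. Single cultivar-seasons ran from -2.76 to -0.50 for MYBF1 and from 0.12 to 1.83 for FLS. Without the 4 libraries against their label the mean changes were -1.97 and 1.23. Both genes were called, in a comparison in which 24.6% of all genes tested were, 5.62% higher and 18.9% lower.

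Single cultivar-seasons kept these directions, with the smallest changes in Pinot noir of 2014. In the 3 Cabernet Sauvignon seasons, in order, MYBF1 fell by 2.13, 2.56 and 1.57 on the log2 scale, and in Pinot noir of 2012 and 2013 by 2.45 and 2.76 (SE 0.20 each, adjusted p of at most 4.97e-12 by limma). FLS rose by 1.83, 1.12 and 1.69 in Cabernet Sauvignon and by 1.41 and 1.49 in Pinot noir of 2012 and 2013 (SE 0.50 each, adjusted p from 0.000745 to 0.0415 by limma). In Pinot noir of 2014 neither change was called, with intervals from 1 spread per gene shared by all groups. MYBF1 had -0.50 (95% confidence interval -0.89 to -0.10, adjusted p = 0.0246 by limma, under the size for a call) and FLS 0.12 (-0.86 to 1.10). Without the library that carried Cabernet Sauvignon markers those values were -0.35 and -0.15, and without the libraries numbered 1 the MYBF1 change was -1.05 and called. With 2014 moved by 1 time point, to match its sugar better to the other seasons, they were -1.93, called, and 0.27. The share of all genes called in that single contrast was 24.4%, against 26.1%, 28.2%, 26.3%, 33.5% and 28.1% in the other 5, in the order given for MYBF1. Of the Cabernet Sauvignon libraries before onset in 2013, library 1 belonged to the second library set; without the libraries numbered 1 the FLS rise of that season was 0.88 and no longer called, and without those numbered 2 it was 0.76 and not called. Leaving out the libraries numbered 3 ended the FLS calls of Pinot noir in 2012 (1.50) and 2013 (1.30).

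**Figure D2:**
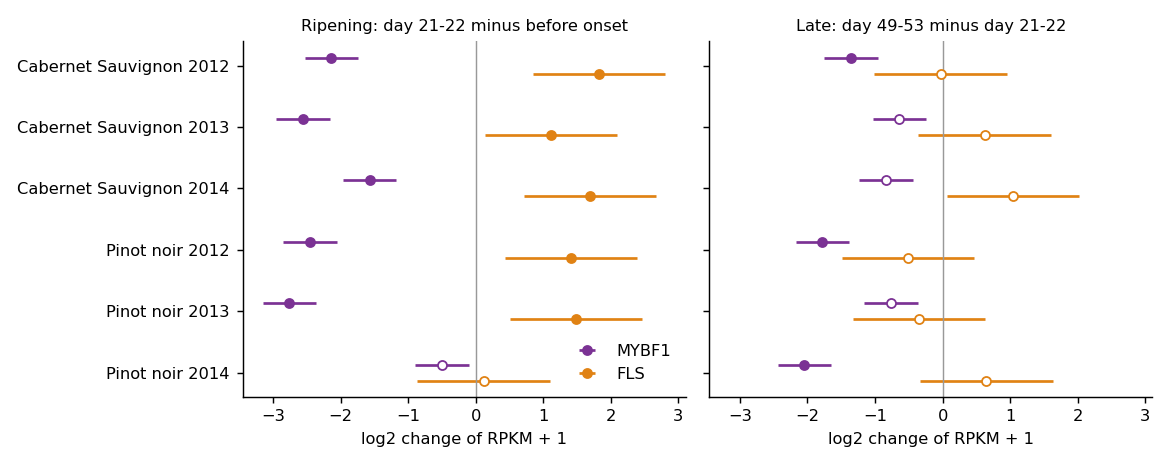
Log2 change of RPKM + 1 for MYBF1 (purple) and FLS (orange) in each cultivar-season, for the ripening change (left) and the late change (right). Points are limma estimates with 95% confidence intervals, filled where the change was called; MYBF1 lies below 0 throughout, and FLS lies above 0 in the ripening change but on both sides of 0 in the late change.

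After day 21 the fading of MYBF1 went on to its end. The late change was the first time point of day 49 to 53 minus day 21 to 22. In Pinot noir the 9 libraries of day 21 had 0.670 to 7.18 RPKM with a median of 1.96 RPKM, and the 9 of day 49 to 53 had 0 to 0.0605 RPKM with a median of 0, so the stages did not overlap. In Cabernet Sauvignon they had 0.317 to 2.27 RPKM, median 1.36, and then 0 to 0.495 RPKM, median 0.139. These overlapped, through 1 low library of day 22 in 2013. The fall was 1.53 in Pinot noir (SE 0.12, adjusted p = 1.96e-25 by limma), called where 10.5% of genes were. In Cabernet Sauvignon the change was -0.95 (SE 0.12, adjusted p = 9.23e-13 by limma), under the size needed for a call that 8.03% of genes received, and the difference between cultivars was -0.58 (SE 0.16, adjusted p = 0.00328 by limma), also under that size; for this difference 3.48% of genes were called. At levels near or below 1 RPKM the added 1 sets how large a fall can appear: with 0.1 added instead, the changes were -2.44 in Cabernet Sauvignon and -4.03 in Pinot noir.

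For FLS the late change was called in neither cultivar, and the libraries of a time point lay far apart. In Cabernet Sauvignon the libraries of day 49 to 53 had 0.0796, 6.86 and 4.21 RPKM in 2012, 3.04, 6.88 and 10.3 RPKM in 2013 and 18.2, 7.75 and 8.61 RPKM in 2014. In Pinot noir they had 2.94, 0.431 and 0.560 RPKM in 2012, 4.08, 1.37 and 1.25 RPKM in 2013 and 0.691, 2.45 and 1.93 RPKM in 2014. In 2014 the cultivars did not overlap, and in 2012 and 2013 they did. The late change was 0.55 in Cabernet Sauvignon (95% confidence interval -0.02 to 1.11, adjusted p = 0.0919 by limma) and -0.07 in Pinot noir (-0.64 to 0.50, adjusted p = 0.869 by limma), with a difference of -0.62 (-1.42 to 0.19, adjusted p = 0.272 by limma). In season order it was -0.03, 0.62 and 1.05 for Cabernet Sauvignon and -0.51, -0.35 and 0.65 for Pinot noir, none of them called. In Cabernet Sauvignon of 2013 day 22 and day 49 belonged to different library sets; without 2013 that cultivar's late change was 0.51.

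The level of FLS itself at day 49 to 53 was lower in Pinot noir. Over 9 libraries a cultivar it ran from 0.0796 through a median of 6.88 to 18.2 RPKM in Cabernet Sauvignon and from 0.431 through 1.37 to 4.08 RPKM in Pinot noir. The difference, Pinot noir minus Cabernet Sauvignon, was -1.40 on the log2 scale (SE 0.29, adjusted p = 9.38e-06 by limma) and was called, as for 9.85% of genes. Taking the 6 cultivar-season means as the replicates, the same difference had an adjusted p of 0.0607 by limma. Before onset it was -0.25 (SE 0.29; -0.16 without the library against its label), at day 21 it was -0.79 (SE 0.29, adjusted p = 0.0137 by limma, under the size for a call), and at day 42 it was -0.44 (SE 0.29). The share of all genes called at those stages was 5.31%, 9.31% and 10.6%. Leaving out 2013, where the cultivars came from different library sets at day 49 to 53, gave -1.48.

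For MYBF1 no level was called different between the cultivars. Pinot noir minus Cabernet Sauvignon was 0.20 before onset (SE 0.12; 0.15 without the library against its label), 0.38 at day 21 (SE 0.12, adjusted p = 0.00277 by limma, under the size for a call), -0.25 at day 42 and -0.20 at day 49 to 53 on the log2(RPKM + 1) scale. At the last of these stages it was listed at 0 in 5 of 9 Pinot noir libraries and in 1 of 9 Cabernet Sauvignon libraries.

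**Figure D3:**
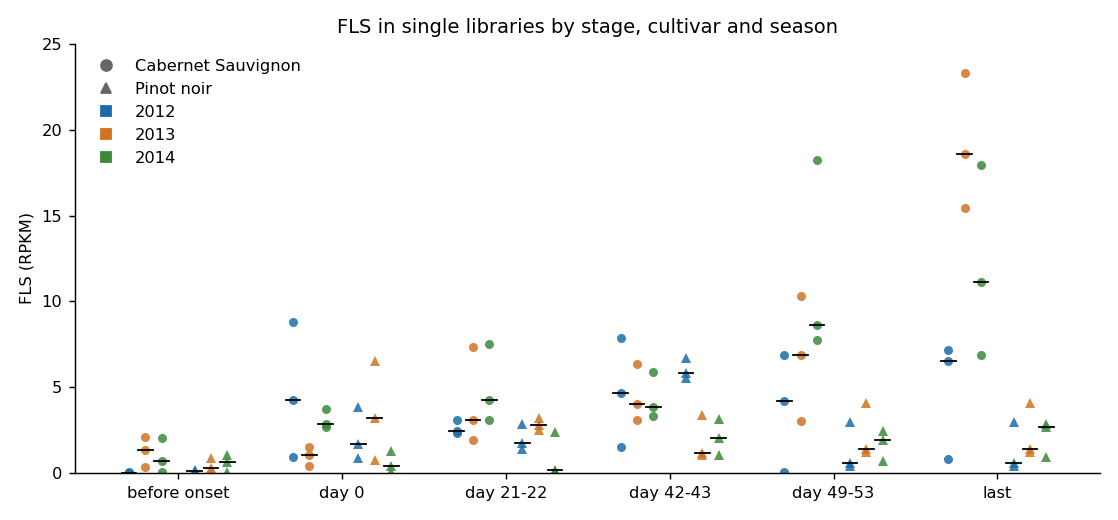
FLS level in RPKM in single libraries at 5 stages and at the last time point of each cultivar-season; circles are Cabernet Sauvignon, triangles Pinot noir, colours are seasons and black bars are the medians of 3 libraries. From day 49 on Pinot noir stays at or below 4.08 RPKM, while most Cabernet Sauvignon libraries lie above it, and the highest group, 15.5 to 23.3 RPKM, is Cabernet Sauvignon at the last time point of 2013.

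The highest FLS levels of the study were reached in Cabernet Sauvignon near and past harvest ripeness. In 2013 the libraries had 9.41, 10.6 and 11.8 RPKM at day 56 and 15.5, 23.3 and 18.6 RPKM at day 63, each group above all libraries of day 43, which had 3.06, 4.00 and 6.36 RPKM. From day 49 to day 63 the rise was 1.48 (SE 0.50, adjusted p = 0.0133 by limma), called where 5.53% of genes were; these time points lay in 1 library set. Without the libraries numbered 1 or 3 the rise was 1.21 or 1.83 and not called. In 2014 the libraries had 5.89, 3.33 and 3.84 RPKM at day 42, 18.2, 7.75 and 8.61 RPKM at day 49 and 17.9, 6.89 and 11.1 RPKM at day 63. Library 1 was the highest of the 3 at each of these days, and at 10 of the 13 time points of that season. The 2012 course was not smooth: FLS had 3.03, 1.44 and 1.35 RPKM at day 63, 22.7, 9.62 and 19.0 RPKM at day 74 and 7.16, 0.796 and 6.55 RPKM at day 80.

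In Pinot noir no time point reached those levels. The highest median was 5.83 RPKM, at day 42 of 2012, with 5.51, 6.72 and 5.83 RPKM, and the next group of that season, at day 53, lay below it throughout. Time points with a mean sugar of at least 24 g per 100 ml allowed a look at ripe berries chosen by sugar. These lay at day 49 to 80 in Cabernet Sauvignon and at day 42 to 53 in Pinot noir, so they also differ in age. There the median FLS level of a time point ran from 6.55 to 19.0 RPKM over 6 time points of Cabernet Sauvignon and from 0.560 to 5.83 RPKM over 5 of Pinot noir. These medians did not overlap, but single libraries did: the lowest of Cabernet Sauvignon had 0.796 RPKM and the highest of Pinot noir 6.72 RPKM. Just under that sugar level Cabernet Sauvignon had medians inside the Pinot noir range, with 4.00 RPKM at day 43 of 2013 and 4.21 RPKM at day 53 of 2012. MYBF1 had medians of 0.0356 to 0.168 RPKM and of 0 to 0.0994 RPKM at the same time points. With the last time point of each season in place of day 49 to 53, a comparison added after the values were seen, the FLS change from day 21 was 1.21 in Cabernet Sauvignon (SE 0.29, adjusted p = 9.61e-05 by limma; 16.1% of genes called) and 0.00 in Pinot noir (SE 0.29). The difference of -1.20 was then called (SE 0.41, adjusted p = 0.0115 by limma), where 5.68% of genes were. Those last time points were day 80, 63 and 63 in Cabernet Sauvignon and day 53, 50 and 52 in Pinot noir, so they also differ in age. Of the single seasons, 2013 in Cabernet Sauvignon was called with 2.10, as were 19.1% of genes, and 2012 and 2014 had 0.41 and 1.10.

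Between seasons the tests called differences for MYBF1 in Pinot noir and none for FLS. Both genes were compared between each pair of seasons within each cultivar, for the ripening change, the late change and the levels at day 21 and day 42. The MYBF1 ripening change of Pinot noir in 2014 exceeded that of 2012 by 1.95 (SE 0.28, adjusted p = 6.85e-09 by limma; 10.5% of genes called) and that of 2013 by 2.26 (SE 0.28, adjusted p = 1.07e-10 by limma; 8.43% called), as the fall was smaller in 2014; without the library against its label these were 2.10 and 2.41. At day 21 the Pinot noir libraries had 2.81, 2.82 and 1.96 RPKM in 2012, 0.784, 0.700 and 0.670 RPKM in 2013 and 7.18, 1.75 and 2.33 RPKM in 2014. The 2013 level lay below both others without overlap, by 1.03 against 2012 (adjusted p = 6.21e-05 by limma; 1.95% called), and the 2014 level was 1.29 above it (adjusted p = 9.41e-08 by limma; 3.57% called). These tests used 1 spread per gene shared by all groups, with an SD of 0.25 for MYBF1. The Pinot noir libraries of day 21 in 2014 lay 0.96, -0.62 and -0.34 from their group mean, farther apart than that. The day 21 level enters both changes. For the late change 2013 minus 2012 was 1.02 (adjusted p = 0.00613 by limma; 5.69% called), and 2014 minus 2013 was -1.28 (adjusted p = 0.000973 by limma; 2.57% called). Moving 2014 by 1 time point ended the calls that involve 2014: the ripening differences became 0.53 and 0.83, the day 21 difference 0.05 and the late difference -0.05. Without the libraries numbered 1, which include the one with 7.18 RPKM, the day 21 difference between 2014 and 2013 was 0.84 and the late difference -0.84, neither called. The 2013 and 2012 differences went under the size of a call without the libraries numbered 1 (late change 0.95) or 2 (0.97, and -0.96 at day 21).

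For FLS none of the 24 season differences was called by limma, and 3 had an unadjusted p under 0.05. They ran from -1.39 to 1.16. Without the library against its label again none was called, 5 had such a p, and they ran from -1.64. Nearest to a call were 3 levels in Pinot noir: at day 21 the 2014 level minus that of 2013 was -1.21 (SE 0.50, adjusted p = 0.0707 by limma), and at day 42 the levels of 2014 and 2013 minus that of 2012 were -1.24 and -1.39 (SE 0.50 each, adjusted p = 0.0906 and 0.099 by limma). At day 42 the Pinot noir libraries had 5.51, 6.72 and 5.83 RPKM in 2012, 1.16, 3.39 and 1.03 RPKM in 2013 and 1.05, 2.03 and 3.15 RPKM in 2014, so that 2012 lay above both later seasons without overlap.

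From one time point to the next MYBF1 mostly declined by less than the size of a call, while FLS moved up and down. Of the 67 successive steps within a cultivar-season, MYBF1 was called lower in 4 and higher in 0; FLS was called higher in 8 and lower in 3. Over all genes and steps 2.99% were called. With no threshold at all MYBF1 went down in 51 of 67 steps and FLS up in 41, and their signs were opposite in 34 steps, both down in 21 and both up in 11. The falls of MYBF1 that were called came at day -28 to -18 in Cabernet Sauvignon of 2012 (-1.36), day 8 to 14 in Cabernet Sauvignon of 2014 (-1.02), day 21 to 32 in Pinot noir of 2012 (-1.46) and day 21 to 28 in Pinot noir of 2014 (-1.25). Of the 8 rises of FLS, 6 lay between day -18 and day 8, around veraison. They were called in each Cabernet Sauvignon season and in Pinot noir of 2012 and 2013, with sizes of 1.26 to 1.60. Cabernet Sauvignon of 2013 went up, down and up again there: FLS had 1.55, 8.73 and 6.73 RPKM at day -6, 1.07, 0.414 and 1.53 RPKM at day 0 and 3.62, 3.27 and 8.18 RPKM at day 8, and neither neighbour overlapped day 0. The other 2 rises were late, at day 32 to 42 in Pinot noir of 2012 (1.41) and day 63 to 74 in Cabernet Sauvignon of 2012 (2.59), and each was followed by a called fall, of 1.76 and 1.84. With the libraries of 1 number left out of every group, FLS was called in 2 to 7 steps.

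Over whole courses regulator and enzyme ran against each other, and less so within the early or the late part. Over the 73 group means of log2(RPKM + 1) Pearson's r between MYBF1 and FLS was -0.65 and Spearman's rho -0.61. Time points of a season are not independent and both genes follow ripeness, so these values are a description with no test. Within single cultivar-seasons r ran from -0.65 to -0.88 over 10 to 14 time points, and from -0.39 (Pinot noir 2013) to -0.80 without the 2 farthest time points of each. Among the 27 groups of day 0 and earlier r was -0.38 and rho -0.48, and r was -0.29 without the 2 groups farthest from the median. Among the 36 groups from day 21 on, whose MYBF1 medians ran from 0 to 2.81 RPKM, r was -0.24 and rho 0.10, and r was -0.04 without the 2 groups farthest from the median.

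Among the 3 libraries of a time point the relation had the other sign. After subtracting each group's mean, r between MYBF1 and FLS was 0.27 and rho 0.28 over all libraries, and r was 0.25 without the 2 libraries farthest from the median. It was 0.22 in the first library set and 0.37 in the second, and 0.20 in Cabernet Sauvignon and 0.36 in Pinot noir. By stage it was -0.32 up to day -13 (45 libraries; -0.23 without the 4 libraries against their label and -0.17 without the 2 farthest), 0.44 from day -9 to day 22 (84 libraries) and 0.25 from day 28 on (90 libraries). The cultivars differed within these stages. In the same order Cabernet Sauvignon had -0.10, 0.16 and 0.43, and Pinot noir -0.49, 0.685 and 0.17. The 3 deviations of a group sum to 0, and libraries of 1 group share their day, so these too are given with no test. Sugar moved with both genes weakly: the deviation in sugar had r of -0.25 with MYBF1 and 0.25 with FLS, and its part in the relation was not tested. MYBF1 ranked 1641 among 21424 genes by its r with FLS.

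**Figure D4:**
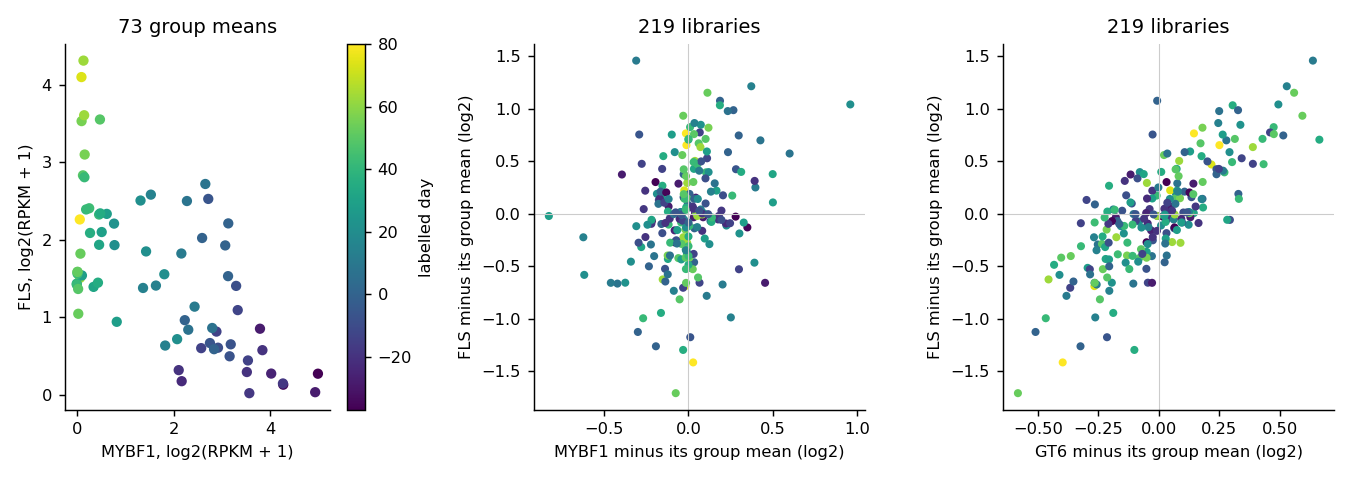
FLS against MYBF1 for the 73 group means of log2(RPKM + 1) (left), FLS against MYBF1 (middle) and FLS against GT6 (right) as deviations of all libraries from their group means; colour gives the labelled day. The left panel slopes down (r = -0.65), the middle panel is a loose cloud with r = 0.27, and the right panel a narrow one with r = 0.79.

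FLS varied between libraries of 1 time point more than most genes. Its residual SD was 0.62 on the log2 scale, against a median of 0.23 over 1540 genes whose mean level was within 0.25 of its own, and 95.6% of these genes varied less. MYBF1 had a residual SD of 0.25, above 56.6% of 1522 genes of its level. The group with the widest FLS range was Cabernet Sauvignon at day 53 of 2012, where library 1 had 0.0796 RPKM and the others 6.86 and 4.21 RPKM. GT6, a glycosyltransferase gene described next, had 0.242, 1.74 and 0.888 RPKM in these 3 libraries, in the same order as FLS. In the 5 groups with the widest FLS range, the library highest in FLS was also the highest in GT6 in 4, and all 3 libraries had the same order in 2. The exception was Cabernet Sauvignon at day 0 of 2012, where FLS was highest in library 1 and GT6, with 0.736, 0.394 and 1.191 RPKM, in library 3. At day 36 of 2013 in Cabernet Sauvignon FLS had 0.728, 4.11 and 7.70 RPKM and GT6 1.02, 0.878 and 1.68 RPKM, so that only the highest library was shared. GST4, the anthocyanin transport gene of coloured skin, was highest in the same library as FLS in 3 of the 5 groups, MYBF1 in 4 and sugar in 3. At day 11 of 2012 in Cabernet Sauvignon FLS had 1.06, 8.73 and 1.22 RPKM and GST4 419, 1090 and 1006 RPKM, whereas in Pinot noir at day 14 of 2013 FLS had 1.23, 5.03 and 0.310 RPKM and GST4 638, 610 and 726 RPKM.

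GT6 (VIT_11s0052g01630, VVGT6 in RefSeq), a glycosyltransferase that attaches sugars to flavonols in grapevine, was the gene whose deviations followed those of FLS most closely. Over all libraries r was 0.79 and rho 0.76, rank 1 of 21424 genes, and r was 0.78 without the 2 farthest libraries. It was 0.78 and 0.80 in the 2 library sets, 0.79 in each cultivar, and 0.61, 0.80 and 0.81 in the early, middle and late stages defined for MYBF1. In the middle stage GT6 had rank 2, just behind VIT_02s0025g01710 (0.798 against 0.800), which had rank 2 over all libraries (0.71). The levels of GT6 were low, with medians of 0.541 and 0.848 RPKM before onset in Cabernet Sauvignon and Pinot noir and of 1.34 and 0.789 RPKM at day 49 to 53. Its ripening change of 0.19 (SE 0.09) was not called. A second ID close to it, VIT_11s0052g01600, had r of 0.62 with FLS, rank 8; how reads were shared between such close IDs is not given in the sources used here.

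Other genes of the pathway list followed FLS among libraries to differing degrees. Of the 18 list genes other than FLS, 16 had a positive r with it within groups and 5 lay above 0.303, the 95th percentile of all genes: GT6, VIT_11s0052g01600, VIT_05s0020g01090 (0.45), chalcone synthase CHS1 (0.42) and CHS2 (0.32). Chalcone synthase makes the first compound of the flavonoid pathway. ANR and LAR1 were the 2 with a negative r; LAR2, which like them acts in tannin formation, had 0.26. The list was drawn from knowledge of the pathway, and its median r was 0.23 against 0.06 over all genes.

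**Figure D5:**
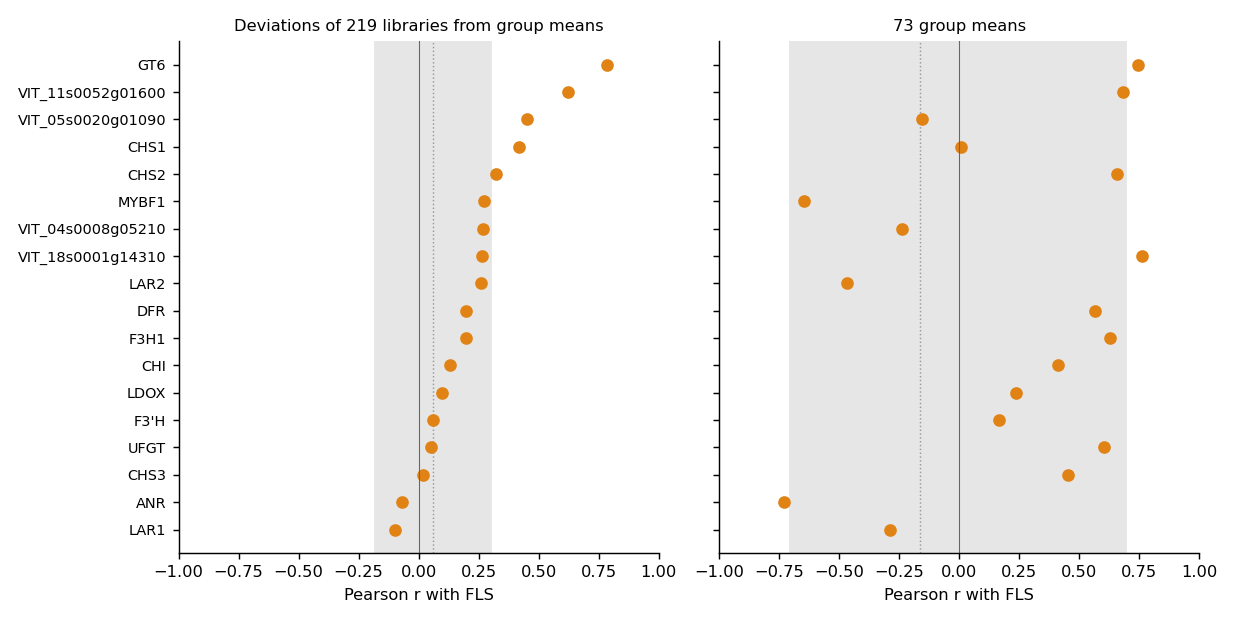
Pearson's r of each pathway list gene with FLS over the deviations of all libraries from their group means (left) and over the 73 group means (right). The grey band spans the 5th to 95th percentile of all genes and the dotted line their median; on the left GT6 stands farthest right at 0.79, and MYBF1 lies at 0.27 on the left and at -0.65 on the right.

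The pathway around FLS changed in both directions during ripening. Of the 17 other list genes 7 rose, 4 fell and 6 were not called in the ripening change, where 5.62% of all genes were called higher and 18.9% lower, with a median of 0.42 against -0.28 over all genes. Without the libraries against their label 7 again rose and 4 fell. UFGT, the anthocyanin glucosyltransferase, rose by 5.63, CHS3 by 3.58 and chalcone isomerase (CHI) by 2.20, while anthocyanidin reductase (ANR), an enzyme of tannin formation, fell by 2.76 (adjusted p of at most 1.55e-39 by limma). The late change called 0 of the 17 in Cabernet Sauvignon by limma, where 2.84% of all genes were called higher and 5.19% lower, with a median of -0.21 against 0.04 over all genes. In Pinot noir it called 3 higher and 1 lower, as it did 3.85% and 6.69% of all genes, with a median of 0.27 against 0.04: F3'H, which adds a hydroxyl group to the B ring, rose by 1.12, CHS1 by 1.05 and flavanone hydroxylase F3H1 by 1.03, and VIT_05s0020g01090 fell by 1.27 (adjusted p of at most 2.66e-07 by limma).

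At day 49 to 53 some upstream genes were called higher in Pinot noir, where FLS was lower, and others were not called. Of the 17 genes 5 were called higher in Pinot noir and 1 lower, with a median of 0.19 against -0.06 over all genes and with 5.01% of all genes called higher and 4.84% lower. CHS1 was higher in Pinot noir by 1.46 (SE 0.19, adjusted p = 5.48e-12 by limma), CHI by 1.40 (SE 0.17, adjusted p = 4.09e-13 by limma) and CHS3 by 1.26 (SE 0.25, adjusted p = 6.6e-06 by limma). VIT_04s0008g05210 was lower by 1.28 (SE 0.11, adjusted p = 1.33e-20 by limma). CHS2, at 0.34 (SE 0.21), was not called. Flavanone hydroxylase makes the dihydroflavonols that FLS uses, and its genes F3H1 and F3H2 were not called either, at -0.29 (SE 0.18) and -0.59 (SE 0.11, adjusted p = 8.34e-07 by limma, under the size for a call). GT6, at -0.30 (SE 0.13), was not called.

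Over the group means the genes most like MYBF1 were VIT_15s0024g00040 (r = 0.96), VIT_14s0083g00260 (0.96) and VIT_08s0058g00490 (0.96), out of 21424 genes. Those most like FLS were VIT_08s0007g02340 (0.86), VIT_02s0087g00340 (0.86) and VIT_11s0016g03780 (0.85). None has a name in the files or the reference. In the order of likeness to MYBF1 FLS took rank 18900, and in the order of likeness to FLS MYBF1 took rank 19045. Both ranks lay toward the unlike end but not at its extreme. The r of -0.65 between the pair was above the 5th percentile of all genes, which was -0.79 for MYBF1 and -0.70 for FLS.

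Reads of FLS could be confused with those of close copies, so the 8 IDs within 50 ID steps of it were looked at. They were chosen by ID number alone and no sequences were compared. Whether any of them is a copy of FLS or shares reads with it was therefore not tested. Of the 8 IDs, 4 passed the filter. VIT_18s0001g03430, VIT_18s0001g03450 and VIT_18s0001g03520 had median levels of 29.4, 334 and 14.0 RPKM, and their within-group r with FLS was 0.07, 0.06 and 0.03; over the 73 group means r was 0.26, 0.41 and 0.66. VIT_18s0001g03510 had a median of 0.0760 RPKM and r of -0.01 within groups and -0.65 over group means. The other 4 had a median of 0.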

How the data were processed

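RNA of seed-free berry pericarp was sequenced from non-directional libraries, per the labels' protocols. The deposited table gives RPKM per gene, made by the authors; the submitters' processing notes name TopHat2 2.0.6 and Cufflinks 2.0.2, and the genome build is not given in the sources used here. RPKM sums were 807469 to 1192349 per library. Read counts are unknown, so the depth behind a value is unknown, and an exact 0 can be a failed estimate.

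All libraries entered one limma 3.58.1 model (R 4.3.3) on log2(RPKM + 1) with 1 mean per group, a trend and robust variances, over the 21425 genes with at least 1 RPKM in at least 3 libraries. Both genes passed. Fold changes on this scale understate changes of low genes. P-values rest on 1 estimate per gene of the spread between samples of a group, shared by all 73 groups. Groups that varied more or less than this were tested with the same spread. The 3 samples of a group came from vine blocks along rows of 1 vineyard. The genes, lists and comparisons were chosen with earlier results of these data known. Pathway genes named were those called, up to 4 per comparison by size; likeness named the top 3 per gene; GT6, CHS2, LAR2 and the F3H genes where not called, IDs named for their r within groups, and libraries named for their spread, were chosen after their values were seen. Of 19 pathway list genes 15 had a symbol in RefSeq. Of the other symbols only F3H2 was used, for VIT_18s0001g14310.

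Alternatives were pseudocounts of 0.1 and 5, no filter, quantile and TMM scaling, a replicate block, leaving out replicates, seasons or the 4 libraries above, moving 2014 by 1 time point, season means as replicates and, added after the data were seen, the last time point. Sequences of the genes were not used here.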

Additional observations from a re-analysis of the deposited data

Results flagged for a closer look

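Of 26 differences of a change between cultivars or seasons that were tested for both genes, 6 had an adjusted p under 0.05 by limma, all of MYBF1, and 4 of these also reached the size of a call. The late change of Pinot noir minus that of Cabernet Sauvignon was -0.58. The ripening change of Cabernet Sauvignon in 2014 minus that in 2013 was 0.99 (SE 0.28, adjusted p = 0.00458 by limma), under the size of a call. In Pinot noir the ripening change of 2014 differed by 1.95 from that of 2012 and by 2.26 from that of 2013. The late change of Pinot noir differed by 1.02 between 2013 and 2012 and by -1.28 between 2014 and 2013. Each of the 4 differences that involve 2014 compares library sets as well as seasons.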

How the results depend on the processing

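Both ripening changes kept their direction under every alternative; the rise of FLS was 0.48 and no longer called with a pseudocount of 5. The pseudocount decided the size of the MYBF1 results at low levels. With 0.1 the late change was -2.44 in Cabernet Sauvignon, the cultivar difference of the late change -1.59, the differences at day 42 and at day 49 to 53 -1.26 and -1.04, all called, and 14 steps were called; with 5 the late change of Pinot noir was -0.51, not called, and 1 step was. The late change of Cabernet Sauvignon passed the size of a call with quantile scaling (-1.03), TMM scaling (-1.02), without 2013 (-1.10) and at the last time point (-1.06). The MYBF1 difference before onset was -0.052 without 2012. Quantile and TMM scaling moved the median ripening change of all genes from -0.28 to 0.06 and 0.00.

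For FLS the late change of Pinot noir lay around 0, with 0.032 at a pseudocount of 0.1, 0.15 without 2012, 0.069 without 2013 and 0.004 at the last time point. At that time point FLS was called in Cabernet Sauvignon (1.21) and in the cultivar difference (-1.20). The FLS difference at day 21 was called with a pseudocount of 0.1 (-1.30), without 2012 (-1.03) and without 2013 (-1.04). At day 49 to 53 it was not called with a pseudocount of 5 (-0.78), nor with cultivar-season means as replicates (-1.40); with a pseudocount of 5, 2 steps were called for FLS. Values of single seasons that changed sign were the FLS late change of Cabernet Sauvignon 2012 (0.11 with a pseudocount of 5, -0.51 to 0.77 leaving out a replicate, 0.41 at the last time point) and 2013 (-0.042 to 0.97 leaving out a replicate), and the FLS ripening change of Pinot noir 2014 (-0.35 to 0.56 leaving out a replicate, -0.15 without the library against its label). So did the change after day 49 to 53: leaving out a replicate it ran from -0.043 to 0.029 for MYBF1 in Cabernet Sauvignon 2012 (0.052 with quantile scaling), from -0.042 to 0.022 for MYBF1 in Pinot noir 2014, and for FLS in Cabernet Sauvignon 2012 from -0.80 to 1.73, called at 1.73 without replicate 2; the ranges were -0.086 to 0.16 for FLS of Cabernet Sauvignon 2014 and -0.26 to 0.76 for that of Pinot noir 2014. The FLS late change of Pinot noir 2014 was called at 1.47 without replicate 1.

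Leaving out 1 replicate number at a time, the MYBF1 late change of Cabernet Sauvignon ran from -1.06 to -0.87, the FLS late change of Pinot noir from -0.16 to 0.013, the FLS difference at day 21 from -1.002 to -0.52, and the steps called from 4 to 8 for MYBF1 and from 2 to 7 for FLS. The r over group means ran from -0.64 to -0.61 and was -0.57 with a pseudocount of 5, -0.68 with quantile scaling, -0.67 with TMM scaling, -0.60 without 2012, -0.69 without 2014 and -0.62 without the 2 groups farthest from the median. Over all genes, replicate numbers did not pair the libraries: the median r of same-numbered libraries' deviations was -0.015 to 0.016 by cultivar-season. With the replicate block the ripening changes stayed at -1.99 and 1.27, and no call named here changed; the FLS late change of Cabernet Sauvignon 2014, 1.05, had an adjusted p of 0.0517 by limma with the block. Without the 4 libraries against their label the steps called were 4 for MYBF1 and 11 for FLS, of 66, and r was -0.65 over group means, 0.29 within groups and 0.79 for GT6.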
